A study of Mus musculus with 12 samples.

Results

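The genes described here are Trp53, which encodes the transcription factor p53, and 9 genes that p53 activates: Mdm2, Ccng1, Cdkn1a, Btg2, Trp53inp1, Sesn1, Zmat3, Phlda3 and Eda2r. They were chosen by symbol as well-known members of the p53 pathway, with earlier results of these data known. All 10 were found among the 54446 gene identifiers of the series and passed the filter on low values. RNA was measured in mouse embryonic stem (ES) cells treated with INK128, a chemical inhibitor of the mTOR kinase (mTORi) under which ES cells enter a dormant, diapause-like state. The 12 libraries fall into 6 groups of 2, namely KH cells and DNMT3ABKO cells at 0, 72 and 144 h of treatment. KH is the wild type, and DNMT3ABKO cells carry knockouts of Dnmt3a and Dnmt3b, which encode the de novo DNA methyltransferases. The labels write E14 before both line names, whereas the methods name the wild type KH2. Both lines were kept, per those methods, on feeders, a layer of fibroblasts whose division had been stopped with mitomycin, and live singlets were sorted for RNA extraction. Each genotype was represented by 1 line, and no culture was left untreated for 72 or 144 h, so treatment and time in culture cannot be told apart. The labels do not say what separates the replicates of a group. The study's reporting summary speaks of biological replicates, with the time points of each processed in parallel, but only for its experiments in general. The p-values therefore measure the spread between these libraries, part of which may be technical.

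Values are TPM, a measure of transcript abundance in which reads are divided by transcript length and each library is scaled to a sum of 1000000. Every value is therefore a share of the RNA of its library. The study reported lower global transcription under mTORi in both lines, from RNA levels scaled to added standards (spike-ins). A rise in TPM is thus a rise in share and need not be a rise per cell. The read depth behind them is unknown. In such bulk samples, fewer cells of a type and less RNA per cell cannot be told apart. Fold changes are given as log2 of (TPM + 1), and a gene was called when its Benjamini-Hochberg adjusted p from limma over all 15727 tested genes was under 0.05. Replicates were most unlike in DNMT3ABKO cells at 0 h, with an SD of 0.27 on the log2 scale against 0.13 to 0.18 in the other 5 groups. As a check of the labels, Dnmt3a stood at 16.8 to 20.2% and Dnmt3b at 8.90 to 14.1% of the KH level in DNMT3ABKO cells. Of 20 fibroblast markers, 18 were tested and 17 fell in KH cells at both times, as did 17 and 18 in DNMT3ABKO cells. The summed level of all 20 fell from 4005 and 4508 TPM to 858 and 756 TPM in KH cells and from 4231 and 4786 TPM to 637 and 612 TPM in DNMT3ABKO cells between 0 and 144 h. The sum of 8 macrophage markers fell from 242 and 258 to 20.6 and 20.5 TPM and from 205 and 231 to at most 35.7 TPM. None of these markers was at 0 in both libraries of a group. The sum of 8 ES cell markers reached 140% of its 0 h level at 144 h in KH cells and 151% in DNMT3ABKO cells.

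The p53 protein is kept at a low level in unstressed cells because Mdm2, a ubiquitin ligase, binds it and sends it to the proteasome. DNA damage and other stresses interrupt this contact, and p53 then binds its response elements and activates genes for cell cycle arrest, DNA repair, metabolic restraint and cell death. Mdm2 is itself a target, which closes a negative feedback loop. ES cells are known to transcribe Trp53 at a high level while running a rapid cell cycle with a short G1 phase. The activity of p53 is regulated mainly through the stability and modification of the protein, which was not measured here.

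p53 binds DNA as a tetramer at 2 half-sites of 10 bases each. Promoter windows of 300 bases from RefSeq (GRCm38.p6, the build of the files) were searched for the p53 half-site consensus, which reads the same on both strands. Stretches of them are printed because they hold matches to this consensus. A window was found for 8 of the 10 genes, 10 windows in all, since Cdkn1a and Sesn1 have 2 starts each. A match to the half-site was present in 5 windows, those of Cdkn1a, Ccng1, Mdm2, Trp53 and Sesn1, whereas 8.36% of all 32851 promoter windows held one. A pair of adjacent half-sites with at most 1 mismatch in 20 bases was present in those of Cdkn1a and Ccng1, against 29 windows (0.0883%) overall. Capitals mark the pair in the first 2 stretches and a half-site in the last 3, and their place is given in bases from the transcription start, negative upstream. Single half-sites also match within both pairs, and at -73 to -64 of Cdkn1a.
Cdkn1a, chr17:29090908-29090967, plus strand, match at -51 to -32 from the start: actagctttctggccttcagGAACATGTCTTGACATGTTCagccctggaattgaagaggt
Ccng1, chr11:40755442-40755501, minus strand, match at -195 to -176 from the start: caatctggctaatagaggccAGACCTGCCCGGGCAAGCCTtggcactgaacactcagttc
Mdm2, chr10:117710915-117710964, minus strand, match at -186 to -177 from the start: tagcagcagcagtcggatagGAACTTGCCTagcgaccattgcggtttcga
Trp53, chr11:69580264-69580313, plus strand, match at -75 to -66 from the start: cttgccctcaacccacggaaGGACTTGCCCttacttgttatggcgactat
Sesn1, chr10:41887246-41887295, plus strand, match at -173 to -164 from its second start, within an intron of the annotated gene: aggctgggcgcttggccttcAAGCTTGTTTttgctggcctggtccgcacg
These matches are a description of the sequence, and no binding of p53 was measured. Places for Cdkn1a are counted from the upstream one of its starts. The windows of Btg2, Phlda3 and Eda2r held no match, nor did those at the downstream start of Cdkn1a and the first start of Sesn1. This says nothing of sites outside these windows. Trp53inp1 and Zmat3 had no entry.

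Most of the targets fell with mTORi while Trp53 itself did not. At 72 h against 0 h, 9 of the 10 genes were called in KH cells, 8 lower and Sesn1 higher, where 47.8% of all tested genes were called, 19.5% lower and 28.3% higher. In DNMT3ABKO cells 8 were called at 72 h, 7 lower and Sesn1 higher, where 56% of all genes were called, 21.6% lower and 34.3% higher. At 144 h, 9 were called in KH cells, 7 lower and 2 higher, against 51.3% of all genes, 23.9% lower and 27.4% higher. In DNMT3ABKO cells at 144 h it was 9 as well, 6 lower and 3 higher, against 57.6%, 26.2% and 31.4%. The median log2 fold change of the 10 genes at 72 and 144 h was -0.59 and -0.52 for KH and -0.82 and -0.65 for DNMT3ABKO, beside 0.08, 0.05, 0.12 and 0.05 over all genes. Mdm2, Ccng1, Cdkn1a, Btg2, Zmat3 and Phlda3 fell in both lines at both times under every alternative processing tried. The fibroblast sum fell in the same libraries, and its part in these falls was not tested.

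**Figure D1:**
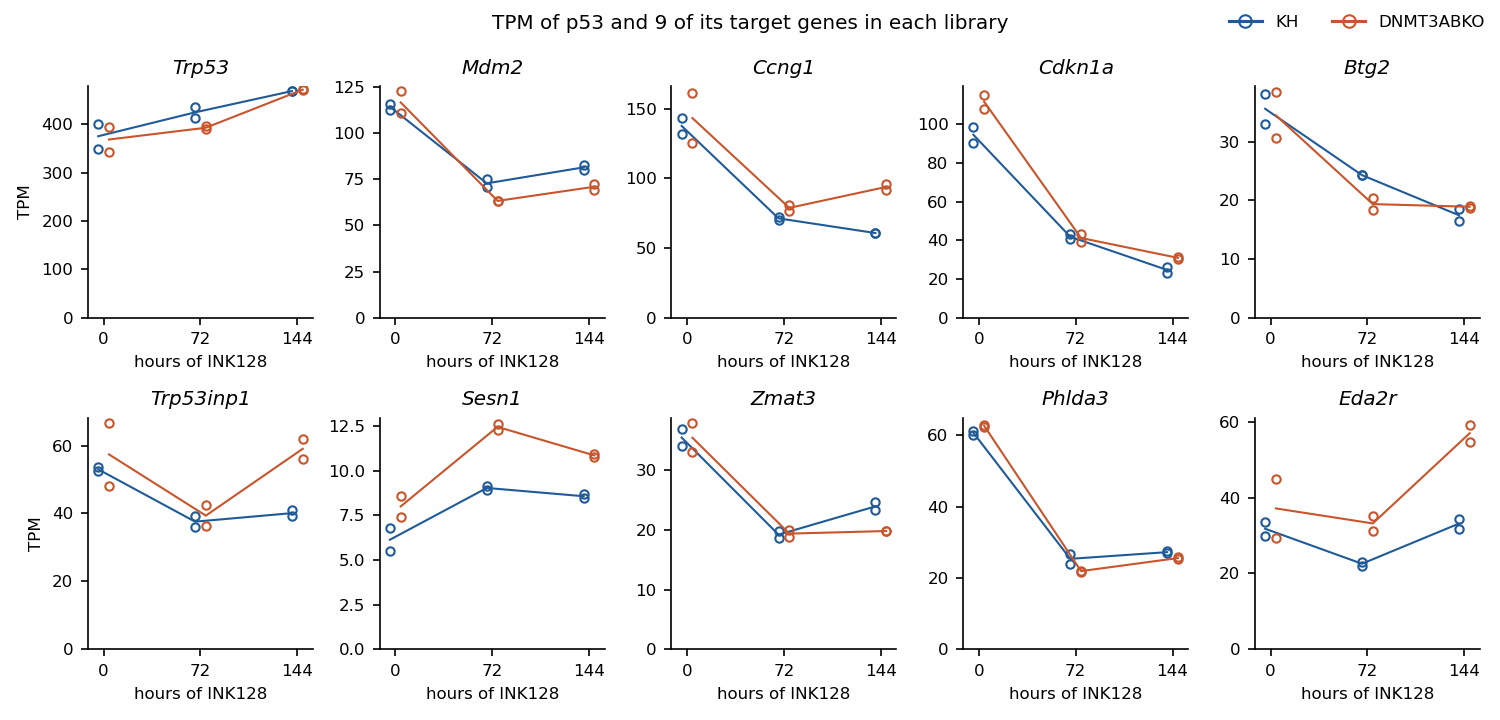
TPM (vertical axes, each from 0) of the 10 genes against hours of INK128 (horizontal axes), with KH in blue and DNMT3ABKO in orange, open circles for single libraries and lines through the group means of 2 libraries. Cdkn1a dropped from 90.5 to 115 TPM at 0 h to 23.1 to 31.3 TPM at 144 h, whereas Trp53 stayed between 342 and 472 TPM.

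Trp53 (ENSMUSG00000059552.13, mm10 chromosome 11, 69580359 to 69591873, plus strand) was the most abundant of the 10 genes in every group. KH libraries stood at 349 and 401 TPM at 0 h, at 436 and 413 TPM at 72 h and at 469 and 468 TPM at 144 h. DNMT3ABKO libraries stood at 342 and 394, 389 and 396, and 472 and 470.3 TPM. All 4 libraries at 144 h lay above all libraries of the earlier times. The rise from 0 to 144 h was 0.32 in KH cells (SE 0.08, adjusted p = 0.00877) and 0.36 in DNMT3ABKO cells (SE 0.08, adjusted p = 0.00422), or 1.25-fold and 1.28-fold. At 72 h the differences of 0.18 and 0.10 were not called (adjusted p = 0.1004 and 0.353), but without replicate 2 at 0 h of the line concerned they were called at 0.28 and 0.20. Without replicate 1 of KH at 0 h the KH rise at 144 h was 0.22 and lost its call (adjusted p = 0.0720). The lines differed by 0.01 at 144 h (95% confidence interval -0.18 to 0.20, adjusted p = 0.953). A processed pseudogene of Trp53, which can share its reads, was listed at 1.7 to 2.5 TPM.

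The feedback genes fell. Mdm2 (ENSMUSG00000020184.15, chromosome 10, 117688875 to 117710758, minus strand) went in KH cells from 113 and 116 TPM at 0 h to 70.7 and 75.1 TPM at 72 h and 80.0 and 83.1 TPM at 144 h. In DNMT3ABKO cells it went from 111 and 123 TPM to 63.2 and 63.5 TPM and 69.4 and 72.7 TPM. Treated and untreated libraries did not overlap in either line, and the lowest values were those at 72 h. The log2 fold changes at 72 and 144 h were -0.64 and -0.48 for KH (adjusted p = 5.76e-05 and 2.34e-04) and -0.87 and -0.71 for DNMT3ABKO (adjusted p = 4.77e-06 and 1.22e-05).

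Ccng1 (ENSMUSG00000020326.7, chromosome 11, 40748552 to 40755311, minus strand) encodes cyclin G1, which recruits the phosphatase PP2A to Mdm2. KH libraries held 132 and 143 TPM at 0 h, 70.3 and 72.3 TPM at 72 h and 60.5 and 61.0 TPM at 144 h, a fall of 0.94 and then 1.17 on the log2 scale against 0 h (SE 0.10, adjusted p = 7.55e-05 and 1.14e-05). DNMT3ABKO libraries held 125 and 161, 81.3 and 76.4, and 92.0 and 95.8 TPM, with log2 fold changes of -0.84 and -0.59 (adjusted p = 8.78e-05 and 7.24e-04). Both DNMT3ABKO libraries at 144 h thus lay above both at 72 h, whereas both KH libraries lay below theirs. The 2 later steps were not called by themselves (-0.23 in KH cells, adjusted p = 0.148; 0.25 in DNMT3ABKO cells, adjusted p = 0.103).

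Of the genes for cell cycle arrest, Cdkn1a moved furthest. Cdkn1a (ENSMUSG00000023067.14, chromosome 17, 29090976 to 29100727, plus strand) encodes p21, the inhibitor of cyclin-dependent kinases through which p53 arrests the cycle. KH libraries stood at 90.5 and 98.6 TPM at 0 h, 43.1 and 40.5 TPM at 72 h and 26.1 and 23.1 TPM at 144 h. DNMT3ABKO libraries stood at 108 and 115, 43.1 and 39.2, and 31.3 and 30.5 TPM. The 3 times did not overlap in either line. Against 0 h, Cdkn1a fell with log2 fold changes of -1.16 and -1.90 in KH cells (SE 0.08, adjusted p = 5.49e-06 and 9.99e-08) and of -1.42 and -1.82 in DNMT3ABKO cells (SE 0.08, adjusted p = 8.74e-07 and 5.99e-08), so that 26.1% and 27.7% of the 0 h level were left at 144 h. It was also the gene that kept falling after 72 h in both lines, by 0.74 in KH cells (adjusted p = 2.09e-04) and by 0.40 in DNMT3ABKO cells (adjusted p = 0.00539). The second of these calls was lost without replicate 1 of DNMT3ABKO at 72 h, where the value was -0.33 (adjusted p = 0.0587). An unnamed transcript on the opposite strand shares 273 exon bases with Cdkn1a and was listed at no more than 0.92 TPM.

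Btg2 (ENSMUSG00000020423.6, chromosome 1, 134075170 to 134079120, minus strand), an antiproliferative factor that recruits deadenylases to mRNA, fell as well. KH libraries went from 33.1 and 38.1 TPM to 24.3 and 24.3 TPM at 72 h and 16.4 and 18.5 TPM at 144 h, by -0.53 and -0.99 on the log2 scale (adjusted p = 0.00408 and 7.23e-05). DNMT3ABKO libraries went from 30.6 and 38.4 TPM to 20.4 and 18.3 TPM and 19.1 and 18.7 TPM, by -0.80 and -0.83 (adjusted p = 2.69e-04 and 1.72e-04). The further step after 72 h was called in KH cells (-0.46, adjusted p = 0.0185) but not in DNMT3ABKO cells (-0.03), and the difference between these steps was not called (adjusted p = 0.200). The KH step was lost without any of 3 libraries in turn.

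Among the remaining effectors, Phlda3 and Zmat3 fell by 72 h and were not called lower in the step after it. Phlda3 (ENSMUSG00000041801.5, chromosome 1, 135766119 to 135769136, plus strand) encodes a small pleckstrin homology protein that competes with the kinase AKT for membrane lipids. It went from 60.1 and 61.3 TPM to 26.8 and 23.9 TPM at 72 h and 27.5 and 26.9 TPM at 144 h in KH cells. In DNMT3ABKO cells it went from 62.9 and 62.4 TPM to 22.0 and 21.8 TPM and 25.3 and 25.8 TPM. Its log2 fold changes at 72 h, of -1.23 in KH (adjusted p = 1.35e-06) and -1.48 in DNMT3ABKO cells (adjusted p = 2.06e-07), were the lowest of the 10 genes at that time, and at 144 h they were -1.13 and -1.26.

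Zmat3 (ENSMUSG00000027663.12, chromosome 3, 32334792 to 32366014, minus strand) encodes a zinc finger protein that binds RNA. KH libraries held 34.1 and 36.9 TPM at 0 h, 18.7 and 19.8 TPM at 72 h and 24.6 and 23.3 TPM at 144 h. DNMT3ABKO libraries held 33.0 and 37.9, 19.9 and 18.8, and 19.8 and 19.8 TPM. The falls at 72 h were alike in size, -0.85 in KH (adjusted p = 3.87e-05) and -0.84 in DNMT3ABKO cells (adjusted p = 2.52e-05). At 144 h Zmat3 stood at 67.5% of its 0 h level in KH and at 55.9% in DNMT3ABKO cells, with log2 fold changes of -0.55 and -0.81 (adjusted p = 4.17e-04 and 2.25e-05). The partial return in KH cells after 72 h was called (0.30, adjusted p = 0.0269), though not after leaving out any 1 of its 4 libraries.

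At 144 h Eda2r was not called lower in either line, and Trp53inp1 was called lower in KH cells but not in DNMT3ABKO cells. Trp53inp1 (ENSMUSG00000028211.11, chromosome 4, 11156431 to 11174379, plus strand), a stress protein that acts with p53 and in autophagy, stood at 53.6 and 52.5 TPM in KH cells at 0 h, 35.9 and 39.3 TPM at 72 h and 41.0 and 39.2 TPM at 144 h. In DNMT3ABKO cells it stood at 48.1 and 66.8, 42.6 and 36.2, and 56.1 and 62.0 TPM. All treated KH libraries were below the untreated ones, whereas the DNMT3ABKO libraries at 144 h lay between those at 0 h. It fell at 72 h by 0.49 in KH (adjusted p = 0.0149) and by 0.52 in DNMT3ABKO cells (adjusted p = 0.00900), and was called lower at 144 h in KH cells (-0.39, adjusted p = 0.0345) but not in DNMT3ABKO cells (0.06, adjusted p = 0.742). The KH call at 72 h was lost without either 0 h library or replicate 1 at 72 h, and that at 144 h without any of its 4 libraries. Both were also lost with no filter on low values. The DNMT3ABKO call at 72 h was lost without replicate 2 at 72 h and with only the groups of the contrast in the model. The DNMT3ABKO value at 144 h ran from -0.18 without replicate 1 at 0 h to 0.29, then called, without replicate 2 at 0 h.

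Eda2r (ENSMUSG00000034457.10, chromosome X, 97333840 to 97377216, minus strand), a receptor of the tumour necrosis factor family for ectodysplasin A2, stood at 29.9 and 33.7, 22.0 and 23.1, and 31.8 and 34.5 TPM over the 3 times in KH cells. DNMT3ABKO libraries stood at 29.3 and 45.0, 35.2 and 31.2, and 54.7 and 59.3 TPM. It was thus lowest at 72 h in KH cells and highest at 144 h in DNMT3ABKO cells. In KH cells it was called lower at 72 h (-0.48, adjusted p = 0.0338), a call lost on leaving out any 1 of the 4 libraries, and stood at 0.06 at 144 h (adjusted p = 0.782). In DNMT3ABKO cells it was not called at 72 h (-0.13, adjusted p = 0.518) and rose at 144 h by 0.63 (SE 0.16, adjusted p = 0.00688), or 1.55-fold. This rise was 0.33 without replicate 1 and 0.94 without replicate 2 of DNMT3ABKO at 0 h. Both fits take the wide spread of that group out of the error, so they do not show whether the call is stable. The 72 h value in DNMT3ABKO cells rested on the spread at 0 h, being -0.43 and called without replicate 1 and 0.17 without replicate 2.

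Sesn1 was the target that rose at 72 h in both lines. Sesn1 (ENSMUSG00000038332.13, chromosome 10, 41809935 to 41908424, plus strand) encodes a sestrin, a leucine-sensing protein that restrains the mTORC1 complex, and was the lowest of the 10 genes in every group. KH libraries stood at 5.49 and 6.79 TPM at 0 h, 9.16 and 8.93 TPM at 72 h and 8.70 and 8.46 TPM at 144 h. DNMT3ABKO libraries stood at 7.42 and 8.60, 12.3 and 12.6, and 11.0 and 10.8 TPM. Treated and untreated libraries of a line did not overlap. The rises at 72 h were 0.50 in KH (adjusted p = 0.00319) and 0.58 in DNMT3ABKO cells (adjusted p = 9.56e-04), and those at 144 h 0.43 and 0.40 (adjusted p = 0.00609 and 0.00758). At 144 h the KH call was lost without replicate 1 at 0 h (0.30, adjusted p = 0.0508), and the DNMT3ABKO call with only the 2 groups in the model (adjusted p = 0.0545).

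**Figure D2:**
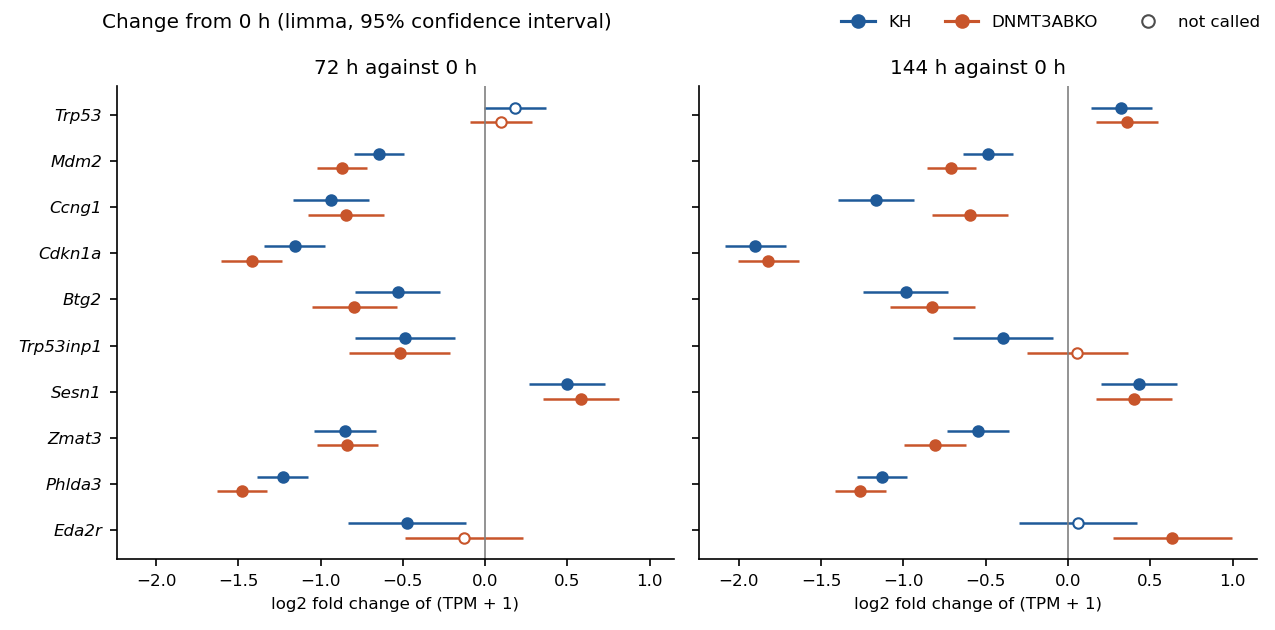
Log2 fold change of (TPM + 1) against 0 h (horizontal axes) for the 10 genes at 72 h (left) and 144 h (right), with KH in blue and DNMT3ABKO in orange, points for limma estimates and bars for 95% confidence intervals, open points being not called. Cdkn1a at -1.90 and -1.82 lies furthest left at 144 h, whereas Sesn1 lies right of 0 throughout.

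The targets were set beside the fibroblast markers, which fell in the same libraries. In KH cells the fibroblast sum stood at 49.7% of its 0 h level at 72 h and 18.96% at 144 h, and in DNMT3ABKO cells at 37.7% and 13.9%. Fn1, the fibronectin gene, stood at 283 to 717 TPM in all libraries and was singled out after its values had been seen. Without it, the sum of the other 19 markers stood at 41.2% and 8.76% in KH cells and at 30.8% and 8.65% in DNMT3ABKO cells, or at 316 to 345 TPM at 144 h. From 72 to 144 h, over which the sum fell again, 6 of the 10 genes stood higher and 4 lower in KH cells. In DNMT3ABKO cells 7 stood higher and 3 lower. The median log2 fold change over all genes in this step was -0.04 in KH and -0.06 in DNMT3ABKO cells. The part of the fibroblasts in these changes was not tested. As a share of the 0 h mean in KH cells, Mdm2 went from 63.7% to 71.3%, Phlda3 from 41.7% to 44.8% and Zmat3 from 54.1% to 67.5%. Ccng1 went from 51.8% to 44.1%, Cdkn1a from 44.2% to 26.1% and Btg2 from 68.2% to 49.0%. In DNMT3ABKO cells Mdm2 went from 54.2% to 60.8%, Phlda3 from 34.9% to 40.8%, Zmat3 from 54.6% to 55.9% and Ccng1 from 55.0% to 65.5%. Cdkn1a went there from 36.9% to 27.7% and Btg2 from 56.1% to 54.8%. In that step 4 of the 10 genes were called in KH cells, Zmat3 and Eda2r higher and Cdkn1a and Btg2 lower, where 22.9% of all genes were called, 7.24% higher and 15.6% lower. In DNMT3ABKO cells 5 were called, Trp53, Trp53inp1, Phlda3 and Eda2r higher and Cdkn1a lower, where 27.3% of all genes were called, 8.81% higher and 18.5% lower. Only the Cdkn1a step in KH cells kept its call under every alternative.

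**Figure D3:**
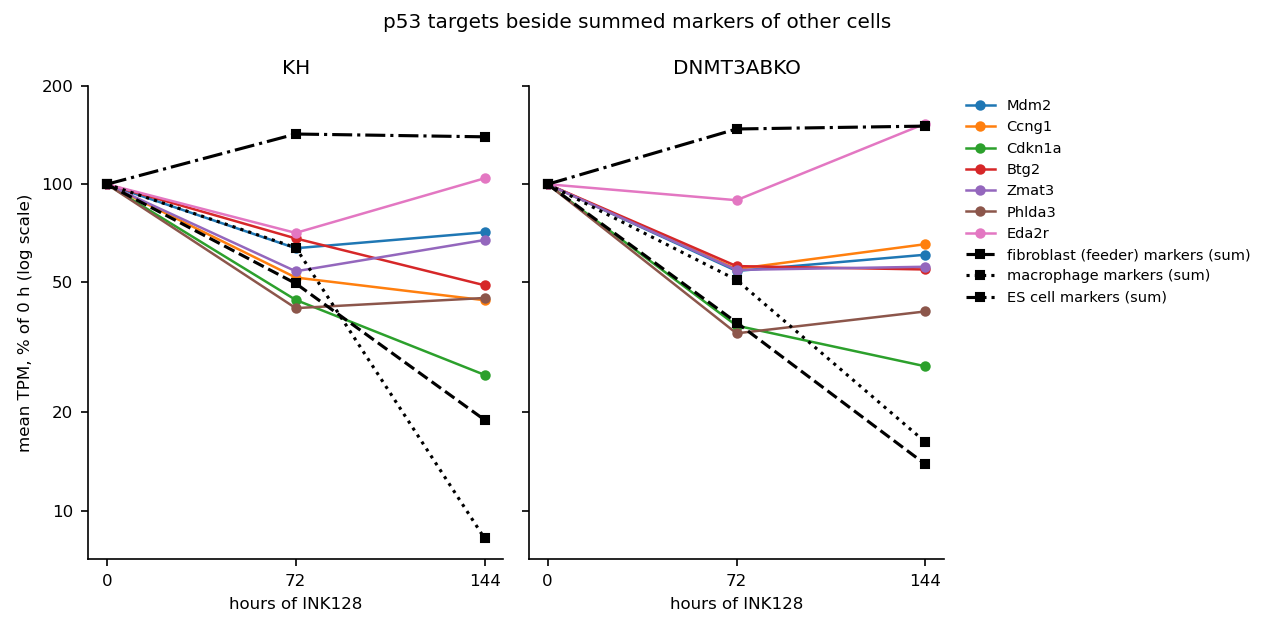
Mean TPM as a percentage of the 0 h mean of the same line (logarithmic vertical axes) against hours of INK128 for 7 targets (coloured lines) and for the summed fibroblast, macrophage and ES cell markers (black lines), in KH (left) and DNMT3ABKO cells (right). At 144 h Cdkn1a stood at 26.1% and 27.7%, between the fibroblast sum at 18.96% and 13.9% and the other targets shown.

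The order of the levels changed with treatment. At 0 h in KH cells it ran from Trp53 through Ccng1, Mdm2, Cdkn1a, Phlda3, Trp53inp1, Btg2, Zmat3 and Eda2r to Sesn1, and of these neighbours Btg2 and Zmat3 overlapped between libraries. At 144 h it ran Trp53, Mdm2, Ccng1, Trp53inp1, Eda2r, Phlda3, Cdkn1a, Zmat3, Btg2 and Sesn1, with Cdkn1a and Zmat3 overlapping. Mean Cdkn1a TPM thus went from rank 4 to rank 7 of the 10 genes in KH cells, and from rank 4 to rank 6 in DNMT3ABKO cells. Over the 12 libraries, log2 values of Mdm2 were closest to those of Zmat3 (Pearson r = 0.98) and Phlda3 (0.97), and those of Cdkn1a to Btg2 (0.95). Trp53 and Cdkn1a ran in opposite directions (r = -0.82). Outside the group, the genes most like Cdkn1a were Wnt9a, Klhl13, Sparc, Cd63 and Csgalnact1 (r from 0.990 to 0.997), of which Sparc is on the fibroblast list. Those most like Mdm2 were Fdps, Pclaf, Srsf9, P4ha1 and Sae1 (r from 0.984 to 0.992), and those most like Trp53 were Khsrp, Ttc27, Ric8b, Khdc4 and Gle1 (r from 0.965 to 0.974). These correlations describe 12 libraries that share 6 groups, and carry no test.

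The lines were then compared, which asks whether cells without de novo methyltransferases hold the p53 targets at other levels. At 0 h limma called 0 of the 10 genes, where 9.06% of all genes were called, and 2 had an unadjusted p under 0.05. These were Cdkn1a at 0.24 (adjusted p = 0.112) and Sesn1 at 0.34 (adjusted p = 0.0749), both higher in DNMT3ABKO cells, and Sesn1 was called without KH replicate 2 or without DNMT3ABKO replicate 1. At 72 h Sesn1 (0.42, adjusted p = 0.0182) and Eda2r (0.54, adjusted p = 0.0432) were called higher in DNMT3ABKO cells, 2 of 10 where 19.3% of all genes were called and 9.26% higher, and neither call was kept when any 1 of the 4 libraries was left out.

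At 144 h, 5 of the 10 genes were called between the lines, 4 higher and 1 lower in DNMT3ABKO cells, where 26.5% of all genes were called, 11% higher and 15.5% lower. Ccng1 was higher in DNMT3ABKO cells by 0.62 (SE 0.10, adjusted p = 0.00182), or 1.54-fold, and kept its call under every alternative. Eda2r was higher by 0.76 (adjusted p = 0.00668), Trp53inp1 by 0.55 (adjusted p = 0.0152) and Cdkn1a by 0.32 (adjusted p = 0.0189), and Zmat3 was lower by 0.26 on the log2 scale (adjusted p = 0.0445). For each of these 5 genes both DNMT3ABKO libraries lay beyond both KH libraries. They were picked by their calls between the same libraries, so this separation adds no support to the calls. The Zmat3 call was lost without any of the 4 libraries, that of Cdkn1a and of Trp53inp1 without any of 3, and that of Eda2r without KH replicate 1 (adjusted p = 0.0513) or DNMT3ABKO replicate 2. Macrophage markers also differed at this time, with 4 of 8 called higher in DNMT3ABKO cells, and of 18 tested fibroblast markers 2 were called higher and 2 lower.

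The responses of the lines were also tested against each other, with an interaction term. At 72 h, 0 of the 10 genes were called by limma, where 5.23% of all genes were called, and 2 had an unadjusted p under 0.05. These were Mdm2 (-0.23, adjusted p = 0.249) and Phlda3 (-0.25, adjusted p = 0.213). At 144 h Ccng1 alone was called, where 8.59% of all genes were called and 4.89% higher, its fall being smaller in DNMT3ABKO cells by 0.57 (SE 0.15, adjusted p = 0.0387). This call was lost without the filter on low values, with only the 4 groups concerned in the model, with a replicate block within each line, and without any of 6 of the 8 libraries, over which the adjusted p reached 0.130. Eda2r (0.57, adjusted p = 0.164), Trp53inp1 (0.45, adjusted p = 0.195) and Mdm2 (-0.22, adjusted p = 0.195) had unadjusted p-values under 0.05 and were not called. Without replicate 2 of DNMT3ABKO at 0 h, Eda2r and Trp53inp1 were called as well, at 0.88 and 0.68, and without replicate 1 Mdm2 was, at -0.30. The step from 72 to 144 h, compared between the lines after the values had been seen, gave 0 calls by limma, 5 unadjusted p-values under 0.05 and 5.33% of all genes called. The largest of these steps were Trp53inp1 at 0.48 (adjusted p = 0.223) and Ccng1 at 0.48 (adjusted p = 0.106).

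Beyond these 10 genes, 40 further p53 targets were examined, all of which passed the filter. In KH cells 21 were called lower and 8 higher at 72 h and 18 lower and 7 higher at 144 h, where 19.5% and 28.3% of all genes were called lower and higher at 72 h and 23.9% and 27.4% at 144 h. In DNMT3ABKO cells the counts were 22 lower and 6 higher at 72 h and 18 lower and 8 higher at 144 h, beside 21.6% and 34.3% and then 26.2% and 31.4% of all genes. Their median log2 fold changes were -0.26 and -0.21 in KH and -0.35 and -0.23 in DNMT3ABKO cells, against medians of 0.05 to 0.12 over all genes. Of 15 targets with metabolic and other roles, 12 were called lower in KH and 11 in DNMT3ABKO cells at 72 h, and 10 in each line at 144 h. Ak1, an adenylate kinase, went from 86.8 and 88.0 TPM at 0 h to 38.2 and 37.1 TPM at 72 h and 19.5 and 20.1 TPM at 144 h in KH cells, and from 121 and 110.3 to 23.7 and 22.1 TPM between 0 and 144 h in DNMT3ABKO cells. Ephx1, a microsomal epoxide hydrolase, fell by 2.79 in KH and by 2.85 in DNMT3ABKO cells at 144 h on the log2 scale (adjusted p = 1.01e-07 and 4.07e-08). Pltp, a phospholipid transfer protein, rose in both lines, by 1.11 and 1.04 at 144 h. The fibroblast and macrophage sums fell in the same libraries, and their part in the changes of the 40 targets was not tested.

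Targets of the cell death class moved in both directions. Of 10 genes, 5 were called lower and 2 higher in KH cells at 72 h, and 6 and 2 in DNMT3ABKO cells, where 47.8% and 56% of all genes were called in either direction. Pmaip1, which encodes the BH3-only protein Noxa, stood at 34.3 and 35.7, 42.6 and 43.6, and 55.2 and 54.4 TPM over the 3 times in KH cells. In DNMT3ABKO cells it went from 28.9 and 30.1 TPM to 53.8 and 49.6 TPM and 85.9 and 91.3 TPM. The rise to 144 h was 0.63 in KH and 1.55 in DNMT3ABKO cells, and the difference of 0.92 between them was called (adjusted p = 1.42e-04). Fas, a death receptor, went the other way, from 2.30 and 2.76 TPM to 0.501 and 0.239 TPM in KH cells between 0 and 144 h (-1.37) and by -1.54 in DNMT3ABKO cells. With a pseudocount of 0.1 TPM these changes of Fas were -2.54 and -2.78, its level being low. Tnfrsf10b, a TRAIL receptor, fell at all times, by -0.97 to -1.22 on the log2 scale. Bbc3, which encodes Puma, fell in KH cells at 72 h (-0.62, adjusted p = 2.84e-04) and stood at 30.3 and 31.6 TPM at 144 h, beside 29.9 and 29.4 TPM at 0 h.

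Of 9 targets in growth arrest and p53 feedback, 5 were called in KH cells at 72 h, 2 higher and 3 lower, and of 6 in DNA repair 3 were called, 2 higher and 1 lower, where 47.8% of all genes were called. Gadd45a, a stress protein that can inhibit Cdk1, rose from 49.5 and 51.9 TPM to 113 and 104 TPM at 72 h in KH cells and from 40.5 and 40.6 TPM to 90.4 and 87.5 TPM in DNMT3ABKO cells, so that it rose over the interval in which Cdkn1a fell. Plk2, a polo-like kinase, fell by 1.52 on the log2 scale at 72 h in KH cells and by 1.03 in DNMT3ABKO cells. Ddit4l, an inhibitor of mTORC1 signalling, fell in KH cells from 5.37 and 5.07 TPM to 3.25 and 3.59 TPM at 144 h, and rose in DNMT3ABKO cells from 7.57 and 6.05 TPM to 13.6 and 15.3 TPM. The difference between these responses was 1.48 (adjusted p = 3.27e-04). Ddb2, a damage sensor of nucleotide excision repair, rose at 72 h by 1.16 in KH and 0.94 in DNMT3ABKO cells. Over all 40 further targets the response at 144 h was called different between the lines in 4, Pmaip1, Perp, Ddit4l and Plk2. The response of each was higher in DNMT3ABKO cells. Of all genes, 8.59% were called and 4.89% called higher, so this count is not read as a result about these targets. Perp and Plk2 fell in both lines, by less in DNMT3ABKO cells. The level of Perp at 144 h was lower in DNMT3ABKO cells (6.87 and 7.07 TPM) than in KH cells (8.07 and 7.81 TPM). The calls of Perp and Plk2 were lost without most single libraries.

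**Figure D4:**
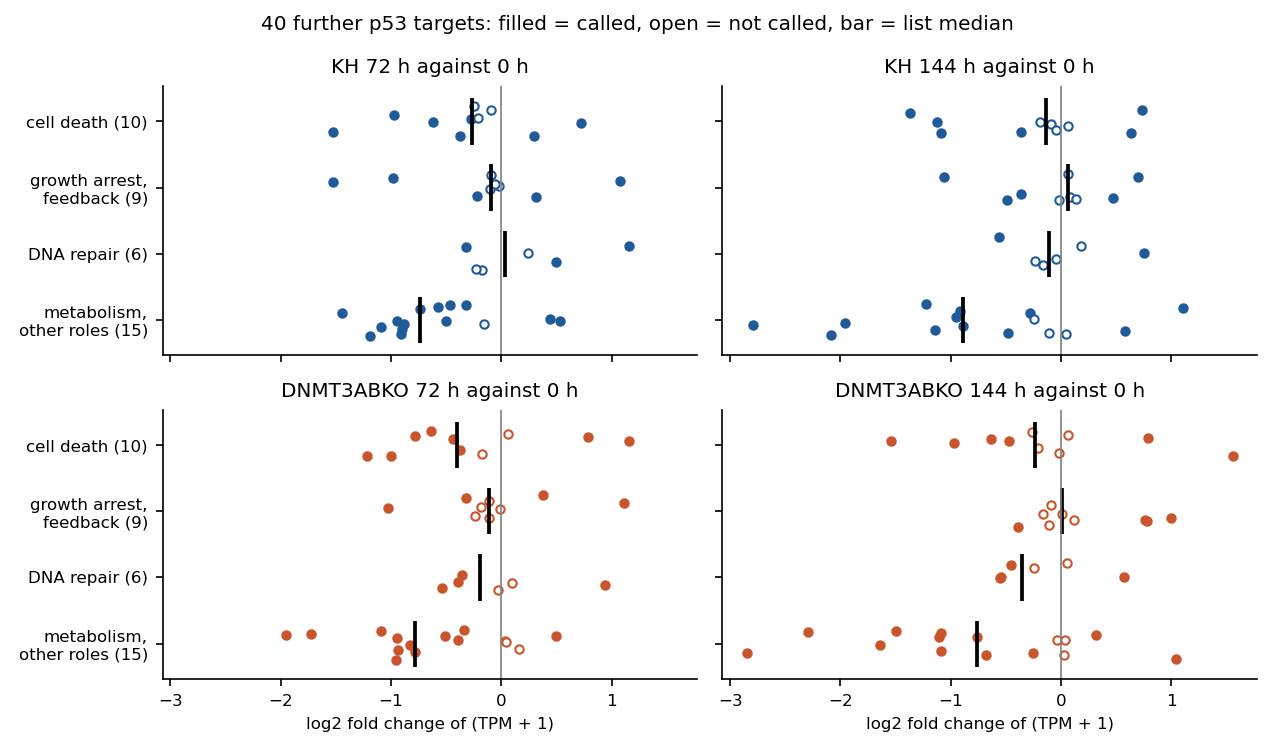
Log2 fold change of (TPM + 1) against 0 h (horizontal axes) for 40 further p53 targets in 4 classes, in KH (blue, top) and DNMT3ABKO cells (orange, bottom) at 72 h (left) and 144 h (right), with filled points called, open points not called and black bars at class medians. The class of metabolic and other roles has its median at -0.73 to -0.89 in all 4 panels, whereas the other classes lie nearer to 0.

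Regulators upstream of p53 moved in both directions as well. Of 26 genes, 9 were called higher and 4 lower in KH cells at 72 h and 12 and 4 at 144 h, and in DNMT3ABKO cells 9 and 5 and then 6 and 5. In all, 13, 16, 14 and 11 of the 26 were called, where 47.8, 51.3, 56 and 57.6% of all genes were, so these counts are not read as a result about the regulators. Median-ratio scaling gave 8 higher and 8 lower in DNMT3ABKO cells at 72 h, and without KH replicate 1 at 144 h, or at 0 h, 9 or 10 genes in all were called in KH cells at 144 h. Atr and Atm, the kinases that signal DNA damage to p53, both rose, Atr by 1.05 to 1.11 and Atm by 0.71 to 0.88 on the log2 scale over the 4 comparisons with 0 h. Sirt1, a deacetylase of p53, rose from 76.5 and 84.6 to 132 and 125 TPM in KH cells and from 48.6 and 64.8 to 139.5 and 144 TPM in DNMT3ABKO cells between 0 and 144 h. Cdkn2a, whose locus encodes the Mdm2 antagonist ARF as well as p16, fell by 1.01 on the log2 scale in KH and by 1.51 in DNMT3ABKO cells at 144 h, and gene-level TPM does not separate its products. Trp53bp1, a damage-response protein that binds p53, went from 26.5 and 26.4 to 38.5 and 38.2 TPM in KH cells and from 30.7 and 31.7 to 22.7 and 22.4 TPM in DNMT3ABKO cells, and the difference of -0.97 between these responses was called (adjusted p = 3.16e-04).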

How the data were processed

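RNA-seq had been performed on 12 libraries of mouse ES cells. Per the study's methods and the labels, the authors spiked ERCC RNA into each sample, removed ribosomal RNA, trimmed reads with cutadapt (2.4), aligned them to mm10 with STAR (2.7.3a) and quantified GENCODE genes with StringTie (2.0; tool versions from the submitters' processing notes). The authors deposited TPM per gene, 1 library per file, each summing to 1000000. No spike-in rows were listed, the counting strand is not given in the sources used here, and TPM keeps no depth, so no counting interval is given. Repeated identifiers (9 to 16 rows per file) were summed.

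The 10 genes, 40 further targets and the other gene lists were chosen with earlier results of these data known. Genes whose mean TPM reached 1 (15727 in all) were tested as log2(TPM + 1) with limma (lmFit and eBayes with trend, 6 group coefficients, two-sided), and p-values were adjusted by Benjamini-Hochberg over all of them. The count-based test of the study was not used, because TPM are not counts. The model was tested on simulated data. There were 11 contrasts, and a contrast of the step from 72 to 144 h between lines was added after the values had been seen. The rule named all 10 genes, at most the 3 highest and 3 lowest called genes of a list per comparison, and the 5 genes with the highest Pearson r to Trp53, Cdkn1a and Mdm2, predicted and small RNA genes excepted. The settings varied were the pseudocount (0.1 TPM), the filter (none, 37364 genes), the scaling (median ratio), the model (only the groups of a contrast, or a replicate block within lines and, chosen later, across lines) and the libraries (leaving out each in turn, where the library left alone is assumed to vary like the other groups). Gene spans were the same in GENCODE M21 for all 10 genes, and promoters are from RefSeq. Software was R 4.3.3 with limma 3.58.1, and Python 3.11.15 with pandas 2.3.3, NumPy 2.4.6 and matplotlib 3.10.9.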

Additional observations from a re-analysis of the deposited data

Results flagged for a closer look

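The response to mTORi at 144 h was called different between the lines for 1 of the 10 genes. Of all genes, 8.59% were called and 4.89% were called higher, so this count is not read as a result about the 10 genes. The gene called was Ccng1. Its TPM went from 132 and 143 to 60.5 and 61.0 in KH cells and from 125 and 161 to 92.0 and 95.8 in DNMT3ABKO cells, and the response was 0.57 higher in DNMT3ABKO cells on the log2 scale (limma interaction, adjusted p = 0.0387). With each library left out in turn the value ran from 0.39 to 0.75, and the call was lost for 6 of the 8 libraries, the exceptions being both DNMT3ABKO libraries at 0 h. Leaving out either of these takes the widest replicate spread out of the error, so the call kept there is no sign of stability. The difference between the lines at 144 h itself, 0.62, kept its call under every alternative.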

How the results depend on the processing

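The 24 falls of Mdm2, Ccng1, Cdkn1a, Btg2, Zmat3 and Phlda3 against 0 h kept their direction and their call under every alternative. Over all 10 genes, none of the called changes reversed, 400 of their recomputed values kept the call and 80 lost it, mostly without a single library. Counts of genes called against 0 h stayed within 1.5 times, at 6 to 10. With no filter, 2 genes were called for KH from 72 to 144 h, 1 between the lines at 72 h and 0 for the difference in response at 144 h. Median-ratio scaling gave 2 between the lines at 0 h, 4 at 72 h, 2 for the response at 144 h and 2 for the step between lines, put Trp53 at -0.0301 in DNMT3ABKO cells at 72 h and Btg2 at 0.0407 from 72 to 144 h, and moved the median of all genes there at 72 h from 0.12 to 0.01. It moved the share of higher calls over all genes from 59.1% to 47.6% and from 61.3% to 49.9% at 72 h in KH and DNMT3ABKO cells, and from 31.7% to 46.1% and from 32.3% to 47.8% for the later step. With only the groups of the contrast, 4 were called between the lines at 72 h, 0 for the response at 144 h and 3 for the step. Leaving out single libraries gave 1 to 2 calls for KH and 1 to 3 for DNMT3ABKO from 72 to 144 h. Between the lines it gave 0 to 2 at 0 h, 0 at 72 h and 1 to 3 at 144 h, and for the responses 0 to 1 at 72 h and 0 to 3 at 144 h. Uncalled values near 0 changed sign, with ranges of -0.023 to 0.143 for Eda2r in KH at 144 h and, in DNMT3ABKO cells, of -0.006 to 0.198 for Trp53 and -0.43 to 0.17 for Eda2r at 72 h, -0.18 to 0.29 for Trp53inp1 at 144 h, and -0.0085 to 0.0705 for Zmat3 and -0.105 to 0.0434 for Btg2 after 72 h. The cause of these shifts was not tested. Leaving out a DNMT3ABKO library at 0 h takes the widest replicate spread out of the error, so calls kept or gained in those fits are no sign of stability.

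The labels share replicate numbers without saying what they mark. If the numbers follow the parallel processing of time points named in the reporting summary, libraries of a line would be paired. Deviations of same-numbered libraries correlated at -0.10 to 0.10 within lines, and between the lines at 0.34 at 0 h, -0.06 at 72 h and 0.04 at 144 h, so the numbers were not taken as pairs. A replicate block within each line left 3 calls for DNMT3ABKO from 72 to 144 h and 0 for the response at 144 h. A replicate block across lines at each time, chosen after seeing the data, gave 2 calls between the lines at 0 h, 4 at 72 h and 1 for the step between lines. A pseudocount of 0.1 TPM kept every count of the 10 genes within 1.5 times, and enlarged the changes of scarce genes such as Fas. The number of reads behind low values, such as the 0.239 TPM of Fas, is unknown, and with 2 libraries per group small differences may be missed.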

Other observations

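Of 18 cell cycle genes that p53 is known to lower through p21 and the DREAM repressor complex, 9 were called higher and 1 lower in KH cells at 72 h and 10 higher at 144 h, and in DNMT3ABKO cells 9 higher and 1 lower and then 13 higher. Of all genes, 28.3, 27.4, 34.3 and 31.4% were called higher and 19.5, 23.9, 21.6 and 26.2% lower in these comparisons. Their median log2 fold changes were 0.16, 0.24, 0.20 and 0.32, against 0.08, 0.05, 0.12 and 0.05 over all genes. With median-ratio scaling the counts at 72 h were 8 higher and 5 lower in KH and 6 higher and 3 lower in DNMT3ABKO cells. Without KH replicate 1 at 0 h, or without any 1 of the 4 libraries at 72 h, 5 or 6 genes were called in the line concerned, and without DNMT3ABKO replicate 2 at 144 h 8 were called there. Top2a, the topoisomerase of dividing cells, went from 279 and 302 to 426 and 409.96 TPM between 0 and 144 h for KH, and from 252 and 308 to 492 and 522 TPM for DNMT3ABKO. Mki67, the proliferation antigen Ki-67, rose by 0.85 in KH and 0.69 in DNMT3ABKO cells at 144 h, and Foxm1, a transcription factor of the G2 phase, rose by 0.70 in KH cells at that time. TPM are shares, and the fibroblast and macrophage sums fell in the same libraries, whose part in these rises was not tested.

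The relatives of p53 were scarce. Trp63 stood at no more than 0.0890 TPM in any library and was not tested. Trp73 stood at 1.14 and 1.10 TPM in KH cells and at 1.90 and 2.71 TPM in DNMT3ABKO cells at 0 h, where the lines differed by 0.63 (adjusted p = 0.0140). This call was lost in 3 of 10 alternatives, with only these groups in the model (adjusted p = 0.192) and without either KH library, and the value was 0.96 with a pseudocount of 0.1 TPM. Trp73 stood at 0.642 and 0.667 TPM in DNMT3ABKO cells at 144 h, a fall of 0.99 on the log2 scale.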
